A study of Mus musculus with 2 samples.

Results

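The genes described here build and use the microtubule tracks of the cell: the alpha, beta and gamma tubulins, the kinesins other than 9 named mitotic ones, cytoplasmic dynein 1 with its light chains and dynactin, and the microtubule-associated proteins Map1, Map2, Map4 and Map7, the end-binding proteins and the stathmins. They were taken by gene symbol alone, as all probes of the array whose annotated symbol belongs to one of these families. The rule found 181 probes for 79 genes, of 34885 probes with 1 symbol and 19057 genes on the array. Kif2c, Kif4, Kif11, Kif15, Kif18a, Kif20a, Kif20b, Kif22 and Kif23 were left out by name. Kif18b, Kifc1, Kifc5b, Kif24, Kif2a and Kif2b, which act at spindles or centrosomes or come from the same subfamilies, were not on that list and stayed in.

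Microtubules are hollow polymers of alpha and beta tubulin dimers. Most kinesins walk towards the growing plus end and dynein, with its activator dynactin, walks towards the minus end, so the 2 kinds of motor move vesicles, organelles and other cargo in opposite directions. In the lens, epithelial cells leave the cell cycle and elongate into fibers, and fiber cells carry microtubules that run along their length.

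The series compared lens fibers with lens epithelium of wild type mice at E12.5 (embryonic day), with 1 array for each tissue and total RNA labelled with biotin for Illumina expression arrays. The sources used here do not give the strain, the way the tissues were parted or any pooling of embryos. With 1 array per group there was no replicate spread, so no test was made and every ratio describes these 2 arrays. In bulk tissue, fewer cells of a type and less RNA per cell cannot be told apart.

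The deposited intensities of 45281 probes were quantile normalized, and a gene was read from its brightest probe by the mean of both arrays. The floor of each array, the 95th percentile of 1580 probes for olfactory, vomeronasal, trace amine and keratin-associated genes taken to be silent in lens, was 32.0 in fibers and 44.5 in epithelium. Genes that passed both floors have a log2 ratio, always fibers over epithelium. Genes that passed only 1 have a bound, "at least N-fold", taken against the floor of the array on which they were dim, and no direction where the unequal floors left that bound under 1. A gene was counted on the fibers side or the epithelium side from a 2-fold ratio or bound on. Among silent probes that passed both floors, 32 in all, the log2 ratio had an SD of 0.84 and reached from -2.31 to 2.36, so a 2-fold difference of a single dim probe lies within what such probes show.

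Lens markers went with the labels. Of 12 fiber markers on the array, all 12 passed a floor and 11 were on the fibers side. Of 8 epithelium markers, 7 passed a floor and all 7 were on the epithelium side, while Foxe3 was below both floors. Of 14 neuron markers, a list of interest because several motors and tubulins are best known from axons, 13 were below the floor on both arrays. The other, Elavl3, read 78 in fibers and 213 in epithelium. Retina, periocular mesenchyme, pigment cell, surface ectoderm, endothelium, erythroid and macrophage lists had 1 or 2 measured members each. In the retina list 5 of 6 markers, and in the mesenchyme list 7 of 8, were below the floor on both arrays. Sfrp2 of the retina list (139.5 in fibers, 1256 in epithelium) and Tfap2b of the mesenchyme list (36 and 208.5), like Elavl3, lay in the direction of the members higher in epithelium, and their part in those results was not tested.

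Of the 79 genes, 44 passed at least 1 floor (55.7%, against 33.9% of all genes with a symbol). They split into 24 that passed both floors, 16 that passed in fibers only and 4 in epithelium only. Of all 6451 measured genes, 2986 passed both floors, 2307 in fibers only and 1158 in epithelium only. The fibers-only share of the members was thus close to that of all genes, and the floor was lower in fibers. The 14 genes on the fibers side were 31.8% of the 44, beside a background of 15.6% of all 6451 measured genes. The 5 genes on the epithelium side were 11.4%, beside a background of 19.0%. Every later count of a family or list at this scale is to be read against 15.6% and 19.0%. The median log2 ratio of the 44 was 0.47, against 0.00 over all measured genes. Counting the 24 genes on both arrays alone, 10 were on the fibers side and 2 on the epithelium side, beside backgrounds of 14.3% and 17.5%, and their median was 0.90 against -0.19.

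These directions depend on how the arrays are scaled to each other. Housekeeping genes were also higher in fibers, 12 of 14 measured with a positive log2 ratio or bound and a median of 1.21. Of the 14, 6 passed the floor in fibers only, and their bounds cannot be negative. The 8 above both floors had 6 positive ratios and a median of 0.94. The median of the 14, 1.21, was subtracted from every ratio, with bounds in fibers moved no further than to 0. The median of all measured genes became -0.88. On this scale 2 members were on the fibers side and 12 on the epithelium side, beside backgrounds of 2.67% and 48.2%. Every housekeeping-scaled count below is to be read against these 2 shares. At this scale every gene that passed in epithelium only, 1158 of all genes and 4 members, was on the epithelium side by construction. No gene that passed in fibers only could be there, so these shares depend in part on which floor a gene passed. Among genes above both floors, 8 of 24 members and 1950 of all 2986 were on the epithelium side. The median of the members became 0.00, which is the value given to bounds without a direction. Among members above both floors it was -0.30, against -1.40 for all genes above both floors. With the arrays centred on their medians the split moved towards fibers, with 19 members on the fibers side and 3 on the epithelium side, beside 19.8% and 14.6% of all genes. Values below are quantile normalized, and the housekeeping-scaled value is given where it changes a direction.

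**Figure D1:**
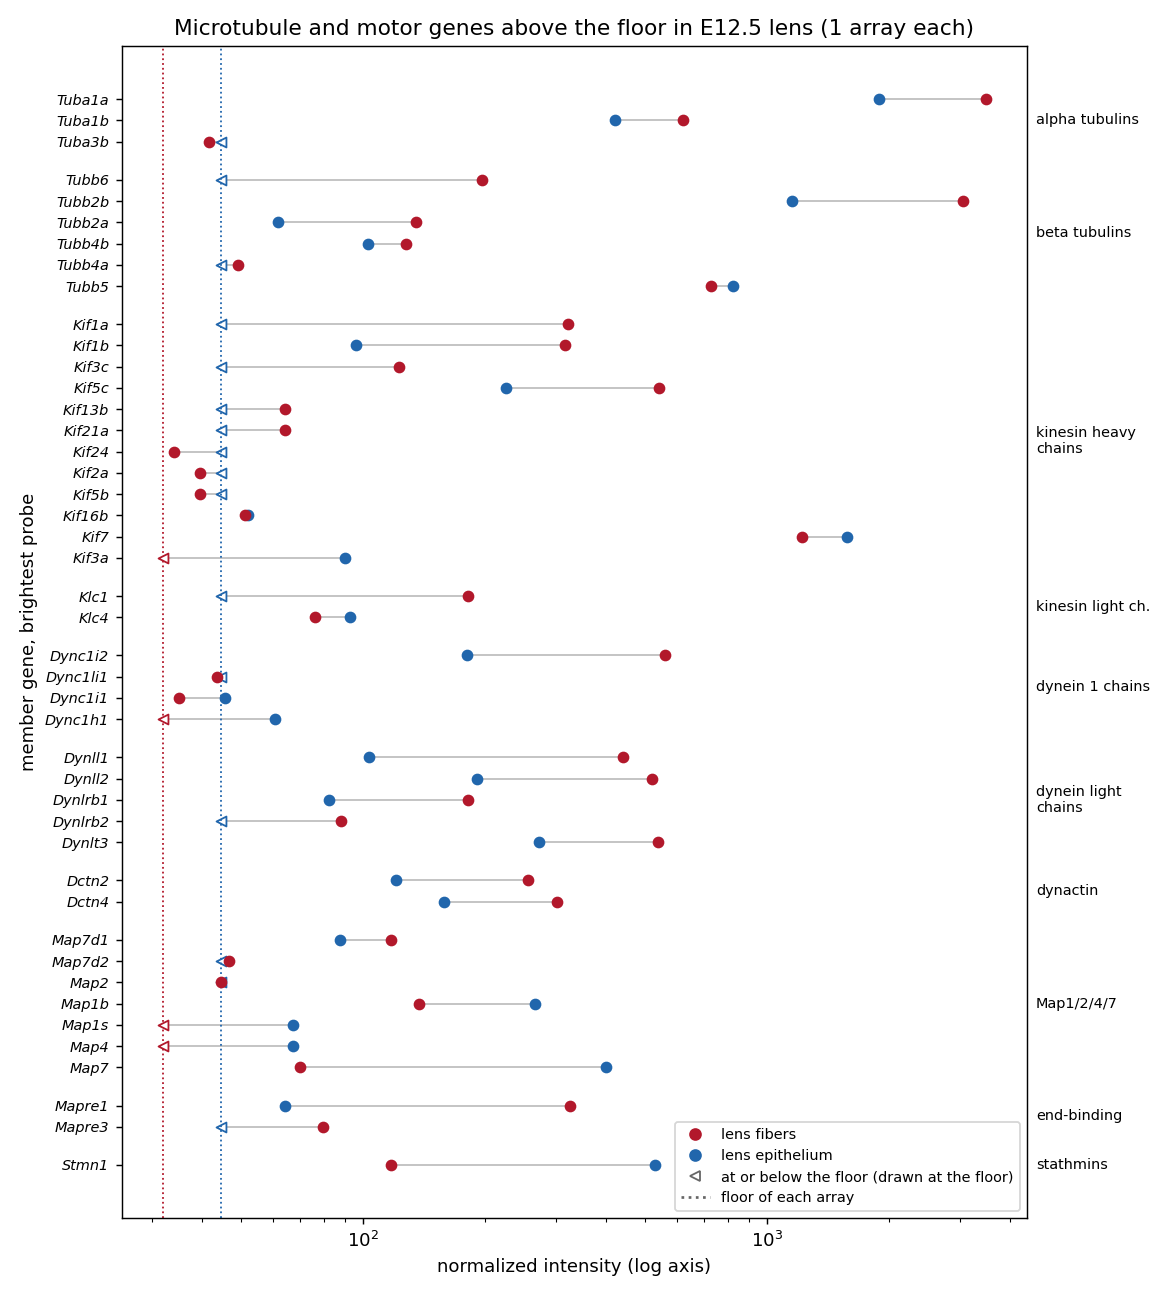
Normalized intensity (log axis) of the 44 member genes above the floor on at least 1 array, by family, in lens fibers (red) and lens epithelium (blue), 1 array each. Open triangles stand at the floor (dotted lines, 32.0 and 44.5) for values at or below it. Mapre1, Dynll1 and Kif1b lie further right in fibers than in epithelium, and Map7 and Stmn1 further right in epithelium than in fibers.

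Before the families are taken in turn, the start regions of 4 members are shown, because these members stand at the ends of the range: Mapre1 and Dynll1 had the highest ratios among the members above both floors, Kif1a the largest bound and Map7 the lowest ratio, each gene read from its brightest probe. They were chosen after their values were seen. Each line holds the 250 bases before the first listed transcript start, from RefSeq on GRCm38.p6, read 5′ to 3′ on the strand of the gene. Capitals mark matches on either strand to 4 motifs. The CCAAT box was searched as CCAAT, the TATA box as TATAAA and the GC box as GGGCGG. The Maf half-site was searched as TGCTGA and is included because Maf proteins regulate fiber genes. Mapre1 lies at chr2:153741037-153741286 on the plus strand, Dynll1 at chr5:115300991-115301240 on the minus strand, Kif1a at chr1:93101875-93102124 on the minus strand and Map7 at chr10:20148670-20148919 on the plus strand.
Mapre1: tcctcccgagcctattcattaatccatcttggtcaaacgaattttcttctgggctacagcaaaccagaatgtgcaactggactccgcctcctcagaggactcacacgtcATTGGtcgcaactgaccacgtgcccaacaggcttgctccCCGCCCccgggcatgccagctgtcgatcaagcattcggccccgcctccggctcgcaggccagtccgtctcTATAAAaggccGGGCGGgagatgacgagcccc
Dynll1: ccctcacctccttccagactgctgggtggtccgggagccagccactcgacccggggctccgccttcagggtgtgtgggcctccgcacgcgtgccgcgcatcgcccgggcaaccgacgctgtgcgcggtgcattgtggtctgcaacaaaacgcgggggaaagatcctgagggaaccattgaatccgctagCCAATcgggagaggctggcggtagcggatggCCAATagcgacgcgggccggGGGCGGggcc
Kif1a: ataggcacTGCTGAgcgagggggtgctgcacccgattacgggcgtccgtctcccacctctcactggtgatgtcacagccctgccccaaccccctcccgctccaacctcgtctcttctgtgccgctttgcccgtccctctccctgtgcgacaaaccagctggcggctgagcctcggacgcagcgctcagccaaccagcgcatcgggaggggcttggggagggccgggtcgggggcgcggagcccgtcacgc
Map7: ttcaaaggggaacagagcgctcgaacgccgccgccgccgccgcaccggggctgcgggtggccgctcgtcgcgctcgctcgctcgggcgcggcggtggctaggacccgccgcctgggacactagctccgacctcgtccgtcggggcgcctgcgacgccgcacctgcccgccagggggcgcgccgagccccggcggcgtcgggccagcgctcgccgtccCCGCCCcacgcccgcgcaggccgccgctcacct

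In these windows Mapre1 held 1 CCAAT box, 2 GC boxes and 1 TATA box, Dynll1 2 CCAAT boxes and 1 GC box, Kif1a 1 Maf half-site and Map7 1 GC box. No 2 of these matches overlapped. A promoter was found for 61 of the 79 genes. A CCAAT box occurred in 25 of the 61, against 34.5% of 27025 promoters of the same length, a GC box in 36 (32.9% of all), a Maf half-site in 12 (15.8%) and a TATA box in 6 (13.0%). Among the members on the fibers side, 11 had a promoter: 6 held a GC box, 4 a CCAAT box, 3 a TATA box (Kif5c, Mapre1, Tubb2a) and 3 a Maf half-site (Dynlrb1, Kif1a, Kif3c). Among the 4 on the epithelium side, GC boxes stood in Kif3a, Map4 and Map7, CCAAT boxes in Kif3a and Map4, and no TATA box or Maf half-site was in the window. These matches describe letters and were not tested as binding sites.

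The tubulins form the polymer itself, and their genes split by isotype. Of 15 tubulin genes, 9 passed a floor, 3 were on the fibers side and none on the epithelium side, and none and 1 (Tubb5) when scaled to housekeeping genes. Tuba1a, the alpha tubulin abundant in developing neurons, read 3477 in fibers and 1888 in epithelium, 1.84-fold. Its second probe read 1239 and 478, 2.59-fold. Tuba1b, a widely expressed alpha tubulin, read 621 and 419.75, 1.48-fold. Both alpha tubulins were thus higher in fibers, but under 2-fold at their brightest probes, and lower there when scaled to housekeeping genes (-0.32 and -0.64). Tuba3b had no direction, and Tuba3a, Tuba4a and Tuba8 were below the floor on both arrays.

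The beta tubulins covered a wider range than the alpha tubulins. Tubb2b, known from developing brain, read 3056 in fibers and 1153 in epithelium (2.65-fold), and its second probe above the floor read 253 and 124 (2.04-fold). Tubb2a read 135 and 61.5 (2.20-fold), which turned to -0.07 on the log2 scale when scaled to housekeeping genes. Tubb6 read 197 in fibers and lay below the floor in epithelium, at least 4.43-fold higher in fibers. Beside these, the widely expressed isotypes differed little: Tubb4b read 128 and 103 (1.24-fold), and Tubb5 read 727 in fibers and 824.5 in epithelium, a log2 ratio of -0.18. When scaled to housekeeping genes, Tubb4b was also lower in fibers (-0.89).

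The other beta isotypes gave little or no signal. Tubb1, the beta tubulin of platelets, and Tubb3, the neuronal class III isotype, were below the floor on both arrays, and Tubb3 had deposited intensities of -3 in fibers and 6 in epithelium on its single probe. Tubb4a read 49 in fibers, a bound of 0.14 on the log2 scale. Tubg1, the gamma tubulin that starts microtubules, was below the floor on both arrays. Tubulin genes share long stretches of coding sequence, and probe sequences were not used here, so signal shared between Tuba1a and Tuba1b or between Tubb2a and Tubb2b cannot be set apart.

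Kinesin heavy chains include the motors that carry cargo towards plus ends. Of 28 genes, 12 passed a floor, 4 were on the fibers side and 1 on the epithelium side, with a median log2 ratio of 0.26; scaled to housekeeping genes the median was 0.00, with 1 and 3. The members higher in fibers belonged to 3 transport families.

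Kif1a and Kif1b, kinesin-3 motors known for moving synaptic vesicle precursors and mitochondria in neurons, were the largest of these. Kif1a read 321.5 in fibers and 4 in epithelium, at least 7.22-fold, and a second probe read 85.5 and 27, at least 1.92-fold. Kif1b read 316 in fibers and 96 in epithelium, 3.29-fold. The 3 other Kif1b probes that passed a floor did so in fibers alone, at 99.5, 121.5 and 202.5, and gave bounds of at least 2.24-fold to 4.55-fold, while the remaining probes of its 9 were below the floor on both arrays. All Kif1a and Kif1b probes above a floor thus had positive values. Apart from the brightest Kif1b probe these were bounds in fibers, which cannot be negative. Kif13b, another kinesin-3 motor, had a bound of 0.52 on the log2 scale. Kif16b, which moves early endosomes, read 51 and 52 and did not separate the tissues at the quantile scale.

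Kinesin-1, the conventional kinesin, pairs a Kif5 heavy chain with light chains that bind cargo. Kif5c read 539.5 in fibers and 225.5 in epithelium, 2.39-fold, and came to 0.05 on the log2 scale when scaled to housekeeping genes. Kif5b, the widely expressed heavy chain, had no direction, and the neuronal Kif5a was below the floor. Klc1, a light chain, read 182 in fibers and 38 in epithelium, at least 4.09-fold. All 5 Klc1 probes passed the floor in fibers alone, 4 with a positive bound and 1 with no direction. Bounds of this kind cannot be negative. Klc4, the other light chain gene found by the rule, read 76 and 93, a log2 ratio of -0.29. The 2 light chain genes thus had opposite signs, by a bound in one case and by less than 2-fold in the other.

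Kinesin-2 genes, whose motors serve the cilium and other cargo, gave 1 bound on each side, each resting on 1 probe. Kif3c read 123 in fibers and 9 in epithelium, at least 2.76-fold. Its other probes were below the floor on both arrays, and with the mean of all probes it had no direction. Kif3a, the subunit needed for cilia, read 18 in fibers and 90 in epithelium, at least 2.81-fold higher in epithelium, but its second probe above the floor (36 in fibers, 21 in epithelium) passed it in fibers alone and had no direction. Kif3b, the usual partner of Kif3a, and Kif17 were below the floor on both arrays. Kif7, a regulator of Hedgehog signalling at the tip of the cilium, read 1223 in fibers and 1572.75 in epithelium, a log2 ratio of -0.36.

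The other kinesin heavy chains gave little. Kif21a had a bound of 0.52 on the log2 scale. Kif2a, a microtubule depolymerase, and Kif24, a depolymerase of the centriole, had no direction. Kif18b, Kifc1, Kifc5b and Kif2b were below the floor on both arrays, as were Kif12, Kif13a, Kif1c, Kif21b, Kif26a, Kif27, Kif9, Kifc2 and Kifc3. Of the 9 mitotic kinesins left out by the rule, 4 were below the floor on both arrays and 5 passed a floor. Kif15 and Kif23 passed both floors, with log2 ratios of -1.87 and -0.86. Kif4, Kif11 and Kif22 passed in epithelium only, and bounds of this kind cannot be positive. Of the 5, 3 were on the epithelium side, and the median was -1.19.

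**Figure D2:**
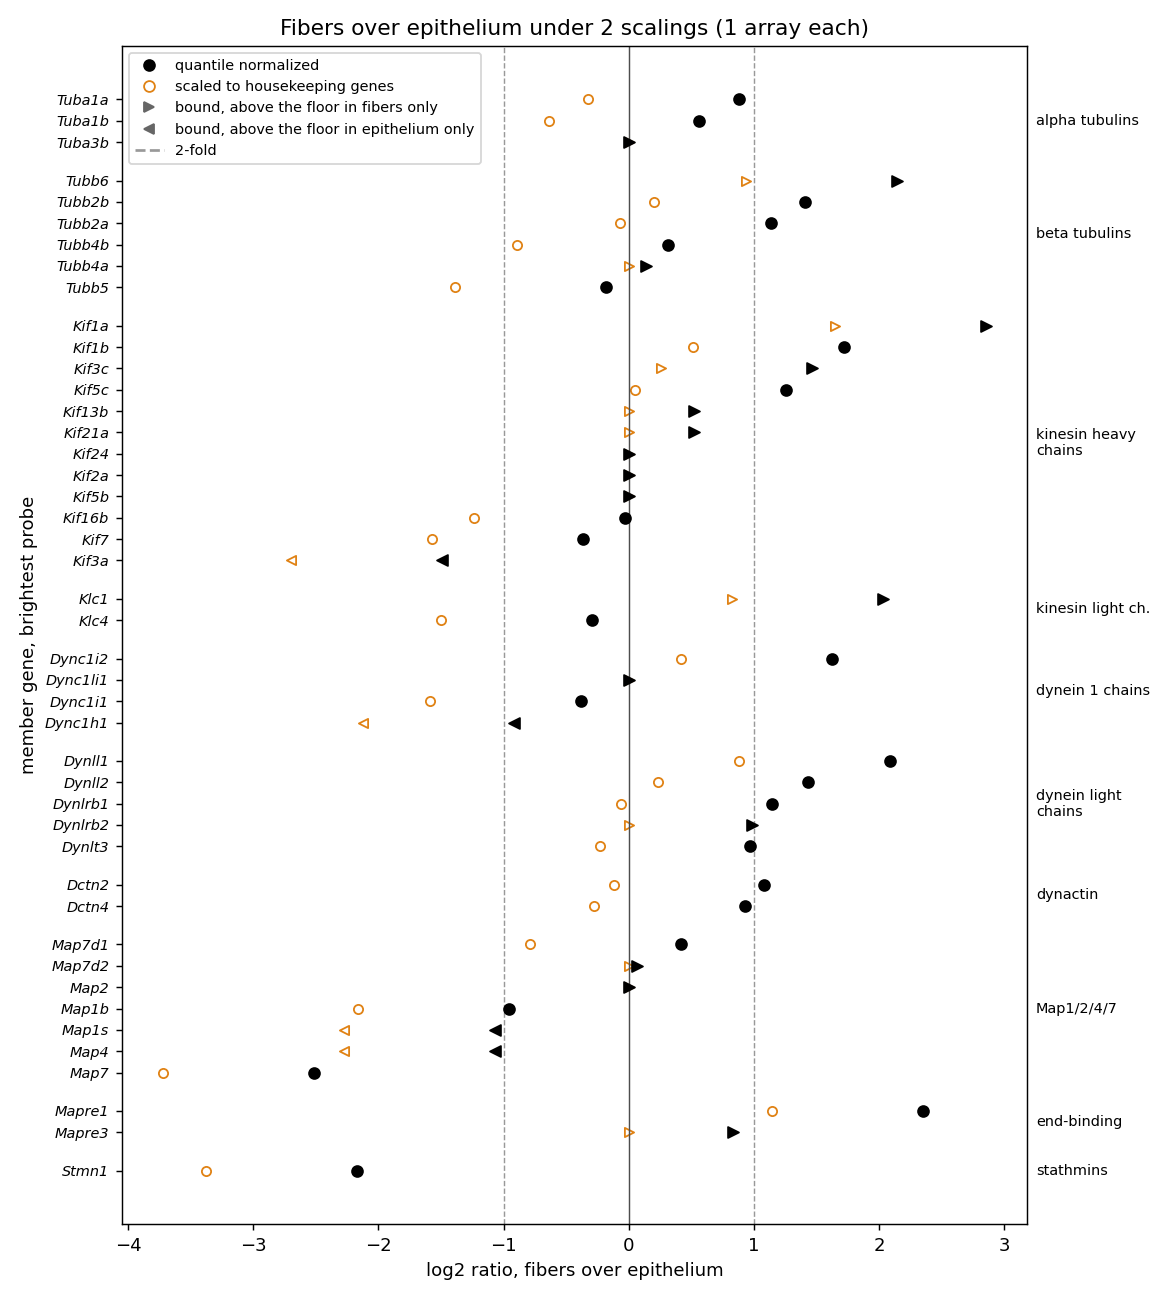
Log2 ratio of fibers over epithelium for the 44 member genes above the floor, quantile normalized (black) and scaled to housekeeping genes (open orange), with bounds as triangles and dashed lines at 2-fold. Scaling to housekeeping genes moved the ratios left by 1.21, and bounds in fibers no further than to 0, so that Kif1a and Mapre1 remained beyond 2-fold on the fibers side and 12 genes lay beyond it on the epithelium side.

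Cytoplasmic dynein 1 is built on a heavy chain, which is the motor, with intermediate and light intermediate chains and 3 kinds of light chain. Of its heavy, intermediate and light intermediate chain genes, only Dync1i2 read well above both floors. Dync1i2, the widely expressed intermediate chain, read 557.5 in fibers and 181 in epithelium, 3.08-fold, on its brightest probe. Another probe, at 36 in fibers and -2 in epithelium, passed in fibers alone with no direction. The remaining Dync1i2 probe was below both floors. Dync1i1, the intermediate chain best known from neurons, read 35 and 45.5, a log2 ratio of -0.38 close to both floors. Dync1h1, the only heavy chain gene of dynein 1, read 29 in fibers and 60.5 in epithelium, at least 1.89-fold higher in epithelium by its single probe. Dync1li1 had no direction and Dync1li2 was below the floor.

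All 5 dynein light chain genes above the floor had positive log2 ratios, 3 of them on the fibers side, and a median of 1.14 that became 0.00 when scaled to housekeeping genes. Dynll1 and Dynll2 encode the LC8 light chains, which also bind many proteins outside dynein. Dynll1 read 440 in fibers and 103.5 in epithelium, 4.25-fold, and its second probe 287 and 86.5, 3.32-fold. Dynll2 read 519.5 and 192, 2.71-fold, and its second probe read 605 in fibers and 39 in epithelium, at least 13.6-fold. Both LC8 genes were thus higher in fibers on both of their probes, and stayed positive when scaled to housekeeping genes (0.88 and 0.23 on the log2 scale).

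The other light chain families stood nearer to 2-fold. Dynlrb1, a roadblock light chain, read 182 in fibers and 82.5 in epithelium, 2.21-fold, and came to -0.06 on the log2 scale when scaled to housekeeping genes. Dynlrb2, its close paralog, read 88 and 8, at least 1.98-fold. Dynlt3, a Tctex light chain, read 536 and 273, 1.96-fold, and came to -0.23 when scaled to housekeeping genes. Dynlt1b was below the floor on both arrays.

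Dynactin links dynein to cargo and keeps it on the track. Both dynactin genes above the floor were higher in fibers, and both were slightly lower there when scaled to housekeeping genes. Dctn2, which encodes dynamitin of the shoulder, read 255.5 in fibers and 120.5 in epithelium, 2.12-fold and -0.12 on the log2 scale after that scaling. Dctn4, a subunit of the pointed end, read 302.5 and 159, 1.90-fold and -0.28. Dctn1, the large subunit that binds microtubules, Dctn3, Dctn5 and Dctn6 were below the floor on both arrays.

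Proteins that bind along the microtubule held 3 of the 5 members on the epithelium side. Of 9 genes of the Map1, Map2, Map4 and Map7 families, 7 passed a floor, 3 were on the epithelium side and none on the fibers side, beside the background of 19.0%. Their median log2 ratio of -0.95 was the value of Map1b, whose probes disagreed, and the median was 0.00 with Map1b counted as without direction. It was -0.10 with no floor and 0.00 with the second brightest probe. Map7, which recruits kinesin-1 to microtubules and is known from epithelia, read 70 in fibers and 400.25 in epithelium, 5.72-fold higher in epithelium. Of its other probes, 2 passed the floor in fibers alone, at 37 and 36, with no direction. Map4, the widely expressed stabilising protein, read 2 in fibers and 67 in epithelium, at least 2.09-fold higher in epithelium, with 1 of 6 probes giving a direction. Map1s read 1 and 67, at least 2.09-fold. The bounds of Map4 and Map1s both fell under 2-fold in 2 other settings. They were -0.59 on the log2 scale with the higher floor used on both arrays, and -0.87 with the arrays centred on their medians.

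Map1b was the only one of 12 members with several probes above a floor whose probes gave both signs. Its brightest probe read 137.5 in fibers and 266.5 in epithelium, 1.94-fold higher in epithelium. The 3 others above a floor passed the floor in fibers alone, at 80.5, 58.5 and 72.0, with bounds of at least 1.31-fold to 1.81-fold higher in fibers, so no direction is given for Map1b, a protein of growing axons. Map7d1 read 117 and 87.5, 1.34-fold, and -0.79 on the log2 scale when scaled to housekeeping genes. Map7d2 had a bound of 0.06, Map2, the dendrite protein, had no direction, and Map1a and Map7d3 were below the floor.

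End-binding proteins track growing plus ends and recruit other factors there. Mapre1, which encodes EB1, read 326 in fibers and 64 in epithelium, 5.09-fold, the highest ratio of any member above both floors, and was 1.14 on the log2 scale when scaled to housekeeping genes. It ranked 56th among the 2986 genes above both floors. Mapre3, encoding EB3, read 79.5 in fibers, a bound of at least 1.79-fold, with no direction when scaled to housekeeping genes. Mapre2 was below the floor on both arrays.

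Stathmins bind tubulin dimers and favour disassembly. Stmn1, common in dividing cells, read 117 in fibers and 528 in epithelium, 4.51-fold higher in epithelium by its single probe. It lay in the same direction as the left-out mitotic kinesins that passed a floor, and as Sfrp2 and Tfap2b above. Any link of Stmn1 to these genes was not tested. The neuronal stathmins Stmn2, Stmn3 and Stmn4 and the related Stmnd1 were below the floor on both arrays.

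Agreement between probes was available for 12 members with at least 2 probes above a floor. In 8 of them at least 1 probe was positive and none negative, and in 1 the signs differed (Map1b). Bounds of probes that passed in fibers alone cannot be negative, which limits what the count of 8 shows. The direction rested on 1 probe in Kif3a, Map4 and Map7 (negative) and in Dync1i2 (positive). For 3 members, Tuba1a, Tubb2b and Dynll1, at least 2 probes passed both floors, and their log2 ratios lay within 0.49 of each other. Over the 472 genes on the array with such probes, the gap between the highest and lowest log2 ratio had a median of 0.57 and a 90th percentile of 1.90. A single probe stood for 30 of the 79 genes.

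**Figure D3:**
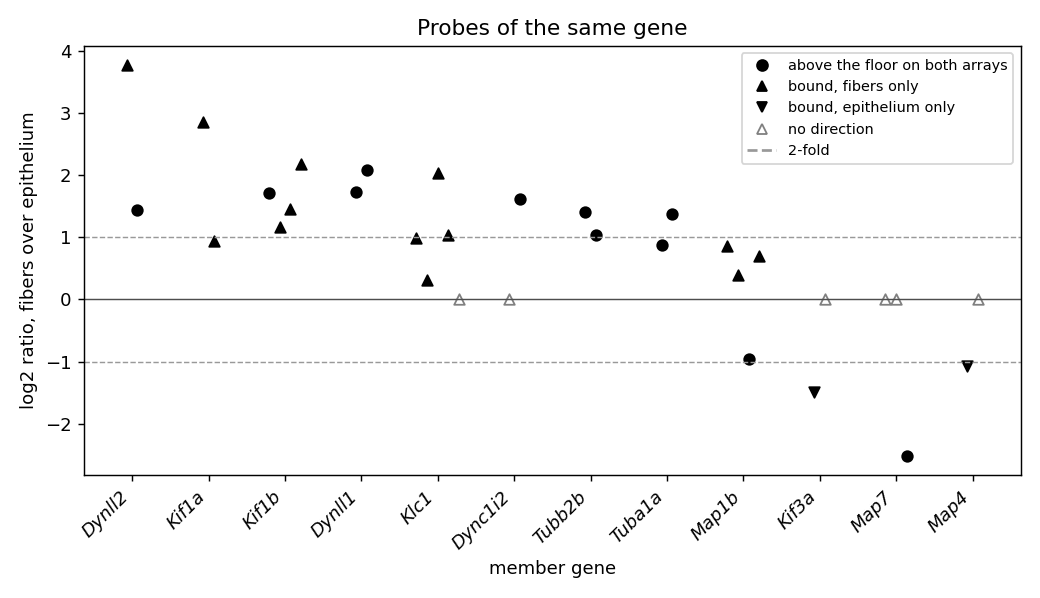
Log2 ratio of fibers over epithelium for each probe above the floor, for the 12 members with at least 2 such probes (triangles are bounds, open symbols have no direction, dashed lines mark 2-fold). Probes of Dynll2, Kif1a, Kif1b and Dynll1 all lie above 0, and Map1b has probes on both sides. Bounds in fibers cannot lie below 0.

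Other genes that make, modify or regulate microtubules were taken from lists of the pathway. All 3 tubulin folding cofactors above the floor, of 7, were on the fibers side: Tbca read 378.75 in fibers and 136.5 in epithelium (2.77-fold), Tbcb 288 and 141.5 (2.04-fold) while Tbcd had a bound of at least 2.16-fold. Scaled to housekeeping genes, none of the 3 was on either side, and Tbcb was negative (-0.18). Tubulin-modifying enzymes had 1 of 7 measured genes on each side, and 0 and 3 when scaled to housekeeping genes. Atat1, the alpha tubulin acetyltransferase, read 35 and 139.25 (3.98-fold higher in epithelium), the polyglutamylase Ttll7 had a bound of at least 3.22-fold on the fibers side, and Ttll1 had a log2 ratio of -0.85.

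Genes of the gamma-tubulin ring and its anchors pointed both ways. Of 8 measured genes, 2 were on the fibers side and 3 on the epithelium side, beside backgrounds of 15.6% and 19.0%. Scaled to housekeeping genes, the counts were 1 and 3. Nedd1, which attaches the ring, read 269.5 in fibers and 49 in epithelium (5.50-fold), while the ring subunit Tubgcp4 had a bound of at least 3.88-fold on the epithelium side. Akap9, a Golgi and centrosome scaffold, was 2.56-fold higher in fibers. Among severing enzymes, 1 of 5 measured genes reached 2-fold, Katnal2, with a bound of at least 3.45-fold on the fibers side, and 3 were on the epithelium side when scaled to housekeeping genes. Fign and Katnal1 had bounds of 0.75 and -0.51 on the log2 scale.

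Plus-end and minus-end proteins had 1 of 9 measured genes on the fibers side and 3 on the epithelium side. Dst, dystonin, which links cytoskeletal filaments to each other and to membrane complexes, read 828 in fibers and 14 in epithelium, at least 18.6-fold, on the brightest of its 12 probes. Clip1, a plus-end tracker recruited by EB1, read 9 and 283.5, at least 8.86-fold higher in epithelium, and Camsap2, a minus-end protein, was 3.39-fold higher in epithelium. Among other microtubule-associated genes, 2 of 6 were on the fibers side and none on the epithelium side, and 1 and 2 when scaled to housekeeping genes. Map9 had a bound of at least 7.75-fold and Ensa, which regulates a phosphatase and is not itself a microtubule protein but stood on the list by mistake, was 4.56-fold higher in fibers, and Mtus1 had a bound of -0.97 on the log2 scale.

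Regulators and adaptors of dynein pointed both ways. Of 10 measured genes, 2 were on the fibers side and 3 on the epithelium side, with a median log2 ratio of -0.44. These are 20% and 30%, not far from the backgrounds of 15.6% and 19.0% for so few genes. Scaled to housekeeping genes, 6 were on the epithelium side, against 48.2% of all genes, and none on the fibers side. Nde1, which binds dynein and Lis1 and is known from dividing progenitors, read -8 in fibers and 229.5 in epithelium, at least 7.17-fold higher in epithelium. Its paralog Ndel1, chosen after its values were seen, read 375.5 and 163, 2.30-fold higher in fibers but marginally below 0 on the log2 scale when scaled to housekeeping genes. The dynein adaptor Hook2 was 6.74-fold higher in epithelium, and Capza1, a capping protein also found in dynactin, 3.34-fold.

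Of 7 measured kinesin adaptors, 1 reached 2-fold, Kidins220, at 508.75 in fibers and 190.5 in epithelium (2.67-fold), and none was on the fibers side and 2 on the epithelium side when scaled to housekeeping genes. Mapk8ip1 had a log2 ratio of 0.95, negative when so scaled, and Kifbp a bound of 0.81. In the cilium, kinesin-2 and dynein 2 move the intraflagellar transport particles along the axoneme. Of 7 measured genes there, 3 were on the fibers side and 1 on the epithelium side. Dync2h1, the heavy chain of dynein 2, read 706.75 and 65, 10.9-fold, Ift20 read 271 and 77.5, 3.50-fold, and Ift172 had a bound of at least 2.97-fold. Scaled to housekeeping genes, 1 of the 7 was on the fibers side and 4 were on the epithelium side, against 2.67% and 48.2% of all genes.

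**Figure D4:**
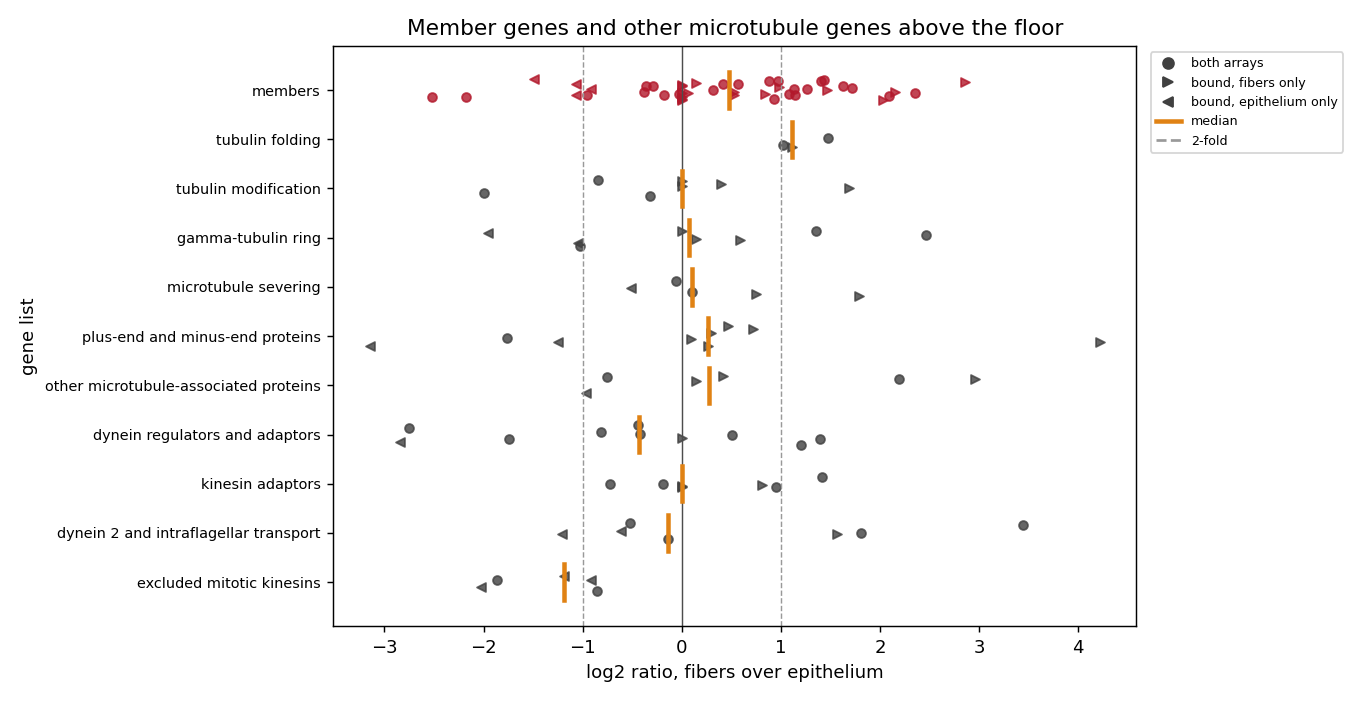
Log2 ratio of fibers over epithelium for the measured member genes (red, top) and for measured genes of 10 other microtubule lists, with the median of each as an orange bar, bounds as triangles and dashed lines at 2-fold. The member median is 0.47. The 3 tubulin folding genes all lie at 2-fold or more on the fibers side (none does when scaled to housekeeping genes). The 5 left-out mitotic kinesins all lie below 0 (median -1.19). Of these 5, 3 are bounds in epithelium, which cannot lie above 0. Scaling to housekeeping genes moves ratios left by 1.21, and bounds in fibers no further than to 0.

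Across the settings tried, the share of members on the fibers side was above that of all measured genes in each of the 10, by a narrow margin when scaled to housekeeping genes (4.55% against 2.67%). The share on the epithelium side was below that of all genes in 9 of the 10, the exception being the setting with no floor (12.7% against 12.4%).

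**Figure D5:**
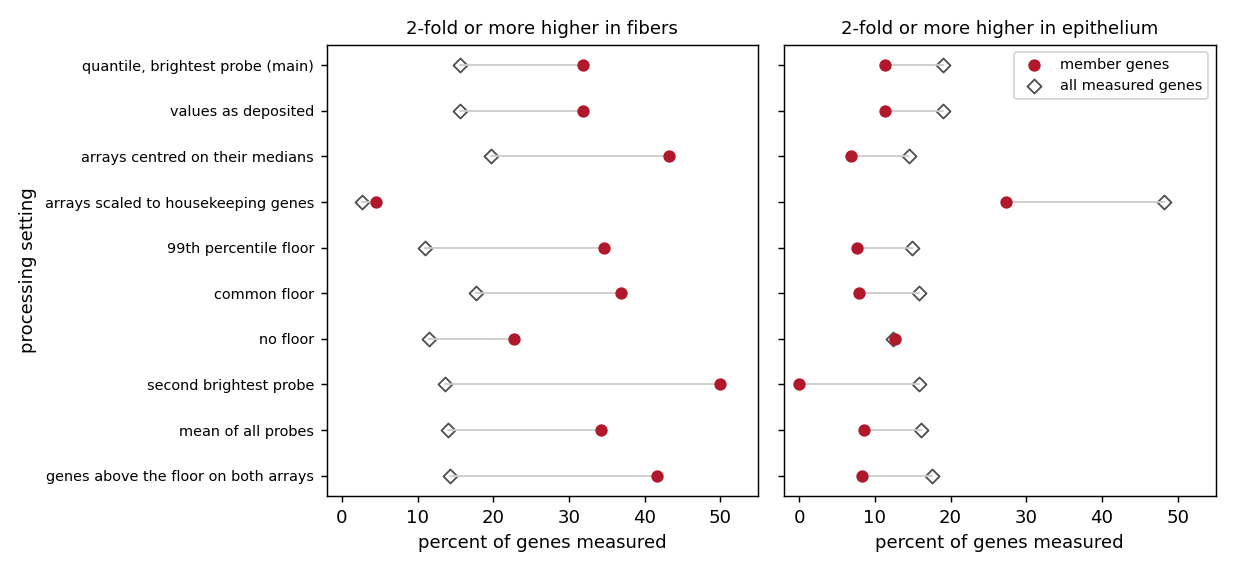
Percent of measured genes on the fibers side (left) or the epithelium side (right), each from 2-fold on, for member genes (filled) and all measured genes (open), under the main processing and 9 alternatives. Member genes lie to the right of all genes in the fibers panel throughout, by the least when scaled to housekeeping genes (4.55% against 2.67%).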

How the data were processed

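The deposited values are 1 intensity for each probe of an array, on a linear scale, and the negative values show that a background was subtracted before deposit. The lowest value was -16 on both arrays, and 38.7% of the fibers and 38.0% of the epithelium values were at or below 0. The sources used here do not say how the background, scaling and rounding were handled. The member genes, gene lists and settings were chosen with earlier results of these data known.

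Symbols came from the platform annotation: 34885 probes had 1 symbol, 18 several and 10378 none. All 79 member gene IDs were in the reference gene table. Intensities were quantile normalized on the linear scale with Python 3.11.15, numpy 2.4.6 and pandas 2.3.3, and each gene took its brightest probe. A bound entered medians at its value and as 0 where it had no direction. The threshold was 2-fold, and no test was possible with 1 array per group. The ratio calculation was tested on simulated data, in which quantile normalization made increases smaller when most changes were increases of bright genes. The number of arrays limits the precision.

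Named genes were all members above both floors, members with a bound of 2-fold or more, members whose probes disagreed, and up to 3 measured genes per pathway list with the largest absolute ratio. Other members are named to account for them. Tubulin protein sequences, also planned, are not shown. The alternatives were the deposited values, median centring, housekeeping scaling with each gene on the same probe, a 99th percentile or common floor, no floor with 17 added before log2, and the second brightest probe or the mean of all probes. One alternative, only genes above both floors, was chosen after seeing the data.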

Additional observations from a re-analysis of the deposited data

How the results depend on the processing

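The count of members at 2-fold or more on the fibers side was 14, and it was 2 when scaled to housekeeping genes, 9 with the 99th percentile floor and 6 with the second brightest probe, which left 26 and 12 measured members in the last 2 settings. The count higher in epithelium was 5, and it was 12 when scaled to housekeeping genes, 10 with no floor, 3 with median centring, with the common floor and with the mean of all probes, 2 with the 99th percentile floor and among genes above both floors, and 0 with the second brightest probe. The median log2 ratio of the members ranged from 0.00 to 0.99. When scaled to housekeeping genes, 9 members changed sign. Among them were 3 at 2-fold or more, Dctn2, Dynlrb1 and Tubb2a, which came to -0.121, -0.0637 and -0.0708, and the others were Tuba1a, Tuba1b, Tubb4b, Dctn4, Dynlt3 and Map7d1. The median of the Map1, Map2, Map4 and Map7 genes was -0.95, but -0.10 with no floor and 0.00 with the second brightest probe. That scaling subtracts 1.21 from ratios by its construction. The cause of the other shifts was not tested. Of the 19 members at 2-fold or more, 11 kept their sign in every setting that gave them a value. Of these 11, 2 also stayed at 2-fold or more, Mapre1 and Stmn1, each with a single probe. Kif1a, Klc1, Tubb6 and Map1s, also among the 11, were bounds, and a change of scaling alone could not reverse their sign. No paired analysis was possible because each group had 1 array, and for the same reason no replicate could be left out. Signal over background limits the 20 members measured on 1 array only, whose ratios are bounds, and the 35 below both floors.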
